A study of Mus musculus with 12 samples.

Results

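The regions described here are the stretches of the mouse genome that carried called H3K27me3 in embryonic intestinal epithelium at both ages studied and in neither adult population. They were chosen by the calls themselves: 200 bp windows covered by an enriched island in all 4 embryonic lists and in none of the 4 adult lists were kept, and adjacent windows were merged. This gave 434 stretches with a total length of 1.41 Mb, out of 29391 separate stretches called in at least 1 of the 8 lists. Because presence in the embryo and absence in the adult made the choice, neither is a finding, and no test was run on them.

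H3K27me3 is trimethylated lysine 27 of histone H3, a mark placed by the enzyme complex PRC2 (Polycomb repressive complex 2) on chromatin of genes that are kept silent. It typically lies in broad domains over developmental regulators, which may be released from it or newly covered as a tissue matures. In the gut, the embryonic epithelium is a layer of dividing cells that later folds into villi and crypts, and the adult epithelium is renewed from Lgr5-positive stem cells at the crypt base.

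The study profiled small-intestinal epithelium of mixed C57BL/6 CD1 mice by ChIP-seq, with 2 libraries for each of 4 populations. The embryonic groups were EpCAM-positive, CD31-negative and CD45-negative cells sorted from embryos at the embryonic days E12.5 and E14.5, whose sex is not stated in the labels. The adult groups were Lgr5-EGFP-high stem cells (ISC) and enterocytes (AE), both at postnatal day 60 and, per the protocols, from male mice carrying the Lgr5EGFP-Cre-ERT allele. The series calls each pair of libraries biological duplicates, and the number of animals behind a library is not given in the sources used here.

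The 8 lists differed in extent, and 2 libraries stand apart in ways that bear on every count below. ISC replicate 1 covered 241 Mb, against 60.8 to 91.0 Mb for the other adult lists, so it removed more embryonic windows than any other library. E12.5 replicate 1 held 6171 islands with a median fold over control of 1.38, the fewest islands and the lowest fold among the 8 lists. Without ISC replicate 1 the rule gave 817 stretches and 2.58 Mb, and without E12.5 replicate 1 it gave 1561 stretches and 4.8 Mb. Each list gives reads for its own islands and for nothing between them, so the level of the mark in the adult at these places is unknown, and a missing call does not show that the mark was absent.

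Among windows called in any list, 0.380% met the rule. Of the 18.6 Mb covered in all 4 embryonic lists, 7.60% was called in no adult list, 8.15% in 1, 9.90% in 2, 15.1% in 3 and 59.3% in all 4. Most length on which the 4 embryonic libraries concurred was thus also called in every adult library, and the embryonic-only stretches were the smallest class of that row. The share with no adult call was larger where fewer embryonic libraries called: 19.7% of the length called in 3 embryonic lists, 34.3% of that called in 2, and 61.8% of that called in 1.

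**Figure D1:**
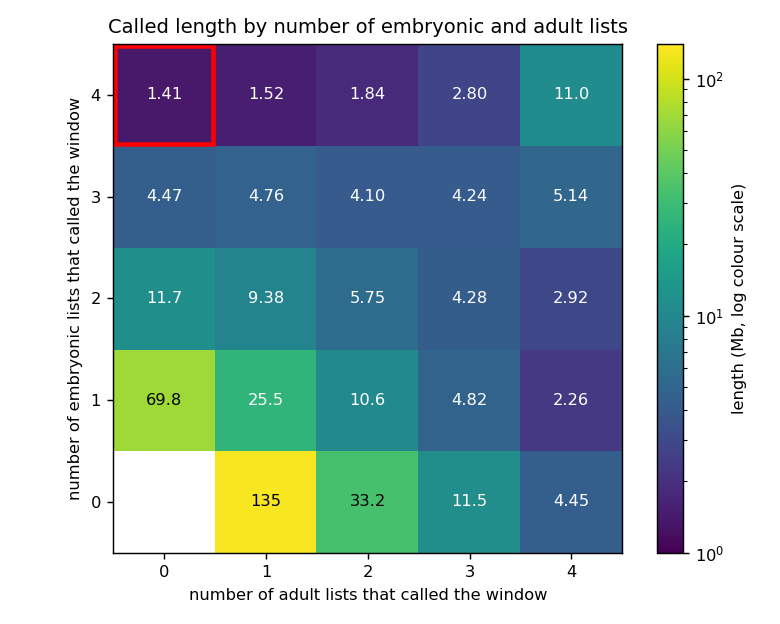
Length in Mb (printed in each cell, log colour scale) by the number of embryonic lists (vertical axis) and adult lists (horizontal axis) that called it. The red frame marks the 1.41 Mb called in 4 embryonic and 0 adult lists, beside 11.0 Mb called in all 8.

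Length that fell just outside the rule shows which libraries set its limits. Stretches called in 3 embryonic lists and no adult list came to 3.38 Mb when the missing library was E12.5 replicate 1. The same figure was 0.443 Mb for E12.5 replicate 2, 0.537 Mb for E14.5 replicate 1 and 0.106 Mb for E14.5 replicate 2. On the adult side, length called in all 4 embryonic lists and 1 adult list came to 1.17 Mb for ISC replicate 1, 0.127 Mb for ISC replicate 2, 0.0766 Mb for AE replicate 1 and 0.143 Mb for AE replicate 2. The 2 libraries named above therefore account for most of the near misses on their own side.

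The stretches were short. Their median length was 2.4 kb (mean 3.25 ± 3.33 kb, SD over 434 stretches), the middle 50% ran from 1.0 to 4.6 kb, and the longest was 23.4 kb. A single 200 bp window made up 33 of them, and 108 were under 1 kb, but these shortest ones held only 3.55% of the length. The 95 stretches of 5 kb or more held 53.9% of it, and 18 reached 10 kb. Adult-only stretches, called in all 4 adult and no embryonic list by the mirrored rule, were more numerous at 1288, with a similar median of 2.6 kb. They made up 17.3% of the 25.8 Mb called in all 4 adult lists, against 7.60% of 18.6 Mb on the embryonic side. The excluding lists differed in extent, with 285 Mb called in any adult list and 188 Mb in any embryonic list. The 2 counts are thus not like for like.

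Stretches fell into separate classes by their surroundings. The genome held 2623 segments covered in all 4 embryonic lists, and 241 of them (9.19%) were wholly free of adult islands. These 241 are whole members, with a median of 3.8 kb and 1.08 Mb in all. A further 171 segments were partly covered by adult islands, and the uncovered parts of these, 0.334 Mb, make up the other 193 members, with a median of 1.2 kb. In these partly covered segments a median of 20.0% of the segment was free of adult islands. ISC replicate 1 was the only adult library over 62 of the 171, while 24 were reached by all 4 adult lists. The remaining 2211 segments (84.3%) were wholly covered by adult islands.

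Short segments were more often free of adult islands than long ones: 23.1% of the 104 segments under 1 kb, 13.2% of the 1013 from 1 kb to under 5 kb, 6.73% of the 1010 from 5 kb to under 10 kb, and 3.02% of the 496 of 10 kb or more. A longer segment has more windows in which an adult call can fall, and these shares were not tested.

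The ends of the stretches were set mostly by embryonic islands. Of the 868 ends, 651 (75%) lay where at least 1 embryonic island stopped with no adult island beside it, and 213 (24.5%) where an adult island began while all 4 embryonic islands went on. E12.5 replicate 2 stopped at 261 ends and E12.5 replicate 1 at 231, compared with 176 for E14.5 replicate 1 and 87 for E14.5 replicate 2. Among adult islands, ISC replicate 1 began at 159 ends, AE replicate 2 at 45, ISC replicate 2 at 18 and AE replicate 1 at 15.

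By distance to the nearest adult island, 196 stretches (45.2%) abutted 1 directly, 175 on a single side and 21 on both. Another 72 lay within 10 kb, 85 at 10 to 50 kb, 38 at 50 to 100 kb and 43 beyond 100 kb, and the median distance was 1.8 kb. Abutting stretches were short, with a median of 1.1 kb, while those beyond 10 kb had medians of 3.7 to 4.0 kb in each distance class. Adult-only stretches abutted an embryonic island at a comparable share, 547 of 1288 (42.5%).

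**Figure D2:**
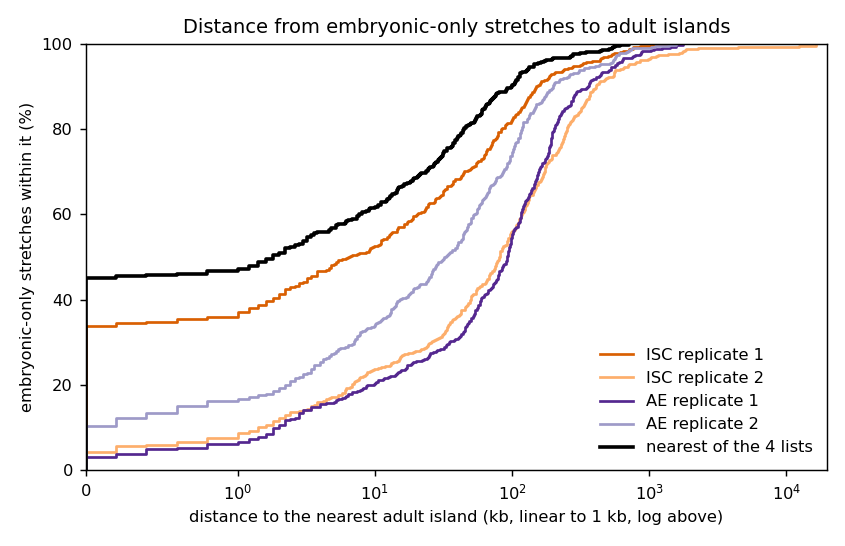
Cumulative share of the 434 stretches (vertical axis, %) within a given distance of the nearest island of each adult list and of all 4 together (horizontal axis, kb, linear to 1 kb and logarithmic above). ISC replicate 1 abuts 147 stretches and lies within 10 kb of 52.5%, and AE replicate 1 within 10 kb of 20.5%.

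The distances differed widely between replicates of 1 population. The median distance was 6.5 kb to islands of ISC replicate 1 but 81.1 kb to those of ISC replicate 2, and it was 92.4 kb for AE replicate 1 and 32.4 kb for AE replicate 2. ISC replicate 1, the list with the most islands (17407), abutted 147 stretches, and ISC replicate 2, with 6668 islands, abutted 18. No ordering of stem cells and enterocytes could be read from these values.

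A stricter class was formed by the stretches whose 4 embryonic islands, taken over their whole extent, touched no adult island. There were 160 of these (36.9% of the stretches), with a median of 4.0 kb, and they held 51.6% of the length. Their median distance to an adult island was 50.0 kb and the smallest 1.8 kb. In the other 274 at least 1 embryonic island ran on into length that an adult library also called. That was so for 262 stretches in E14.5 replicate 2, the embryonic list of the greatest extent, and for 215 in E12.5 replicate 2.

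Some stretches lay close together, but of 414 pairs of neighbours on a chromosome 232 were 1 Mb or more apart. The median gap was 1551 kb. Chained over gaps of at most 50 kb, the stretches formed 321 neighbourhoods, of which 253 held a single stretch and 68 held 2 or more. Clustering was not compared with that of other called stretches. Those 68 contained 181 stretches (41.7%) and 46.3% of the length, 47 of them with exactly 2 and 7 with 5 or more. Part of this clustering, and possibly most of it, is the breaking up of broad islands. Of the 414 pairs, only 113 had their gap inside a neighbourhood. Pairs 10 kb or less apart numbered 81, and 93 lay in the same island of at least 1 embryonic list. An adult island interrupted 40 of the 113 gaps inside neighbourhoods.

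The neighbourhood with the most embryonic-only length was on chromosome 8, 112484201 to 112599400 (mm9). It held 9 stretches with 56.2 kb of its 115.2 kb span, and the only adult call inside was an island of 8.6 kb in ISC replicate 1 (112524601 to 112533200) with a fold of 1.35. In E14.5 replicate 2, 8 of the 9 stretches shared 1 island of 88.6 kb, whereas E12.5 replicate 1 held the 9 in 6 islands of 4.0 to 23.4 kb. The longest of all stretches, 23.4 kb (112576001 to 112599400), closes this neighbourhood. Its 4 embryonic islands had folds of 1.43 (95% interval 1.25 to 1.63) and 2.58 (2.39 to 2.78) at E12.5, then 2.54 (2.34 to 2.76) and 2.47 (2.33 to 2.61) at E14.5. E12.5 replicate 1 was thus the low library here, and the intervals of the other 3 overlapped. The nearest adult islands lay 13.4 kb (ISC replicate 1), 31.6 kb (ISC replicate 2), 165 kb (AE replicate 1) and 46.6 kb (AE replicate 2) beyond it.

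The second neighbourhood, also on chromosome 8 (87225001 to 87327600), had another layout. Its 7 stretches held 49.6 kb of 102.6 kb, and 19.0 kb inside was called in at least 1 adult list. The stretch of 21.0 kb in it (87284201 to 87305200) is followed at once by short islands in all 4 adult lists: 9.8 kb in ISC replicate 1 with a fold of 1.76, 5.2 kb in ISC replicate 2 with 1.43, 7.0 kb in AE replicate 1 with 1.21 and 6.4 kb in AE replicate 2 with 1.71. The embryonic islands did not stop there but spanned 31.4, 57.2, 58.0 and 68.8 kb across the adult ones. Each of these 4 adult islands was thus shorter than every embryonic island over it.

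Chromosome 1, 122842201 to 122879000, was covered almost without a break. Its 3 stretches of 15.8, 17.6 and 0.8 kb filled 34.2 of 36.8 kb, no adult list had an island between them, and all 3 belonged to the class that stands apart from adult islands. E12.5 replicate 2 and E14.5 replicate 2 each covered the ground in a single island, of 43.8 and 50.0 kb, and the divisions came from breaks in E12.5 replicate 1 and E14.5 replicate 1. ChIP reads in the islands over the 17.6 kb stretch numbered 304, 1530, 1430 and 1159 against 300, 765, 603 and 808 control reads, in the order E12.5 replicates 1 and 2 and E14.5 replicates 1 and 2. The folds in that order were 1.74, 3.19, 2.55 and 2.51. The nearest adult island was 1 of 5.0 kb in AE replicate 2, 46.2 kb before the stretch, and the nearest of the other 3 adult lists lay 188 to 196 kb after it.

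The remaining 2 of the 5 leading neighbourhoods had lower E12.5 replicate 1 folds over their longest stretch than those above. On chromosome 11 (116951801 to 117032200), 5 stretches held 30.0 of 80.4 kb with no adult island inside, and all 5 stood apart. On chromosome 17 (34315801 to 34402800), 5 stretches held 31.4 of 87.0 kb, with 22.8 kb of adult calls between them. Folds over the longest stretch of each, 15.0 and 12.4 kb, were 1.22 and 1.24 in E12.5 replicate 1, at FDRs of 2.03e-04 and 0.00188. In E12.5 replicate 2 they were 2.22 and 2.21, in E14.5 replicate 1 they were 1.47 and 1.95, and in E14.5 replicate 2 they were 2.08 and 2.00. Over the other stretches, E12.5 replicate 1 folds were 1.22 to 1.33 on chromosome 11 and 1.28 to 1.46 on chromosome 17. Over the stretches of the leading chromosome 8 neighbourhood they were 1.29 to 1.97.

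**Figure D3:**
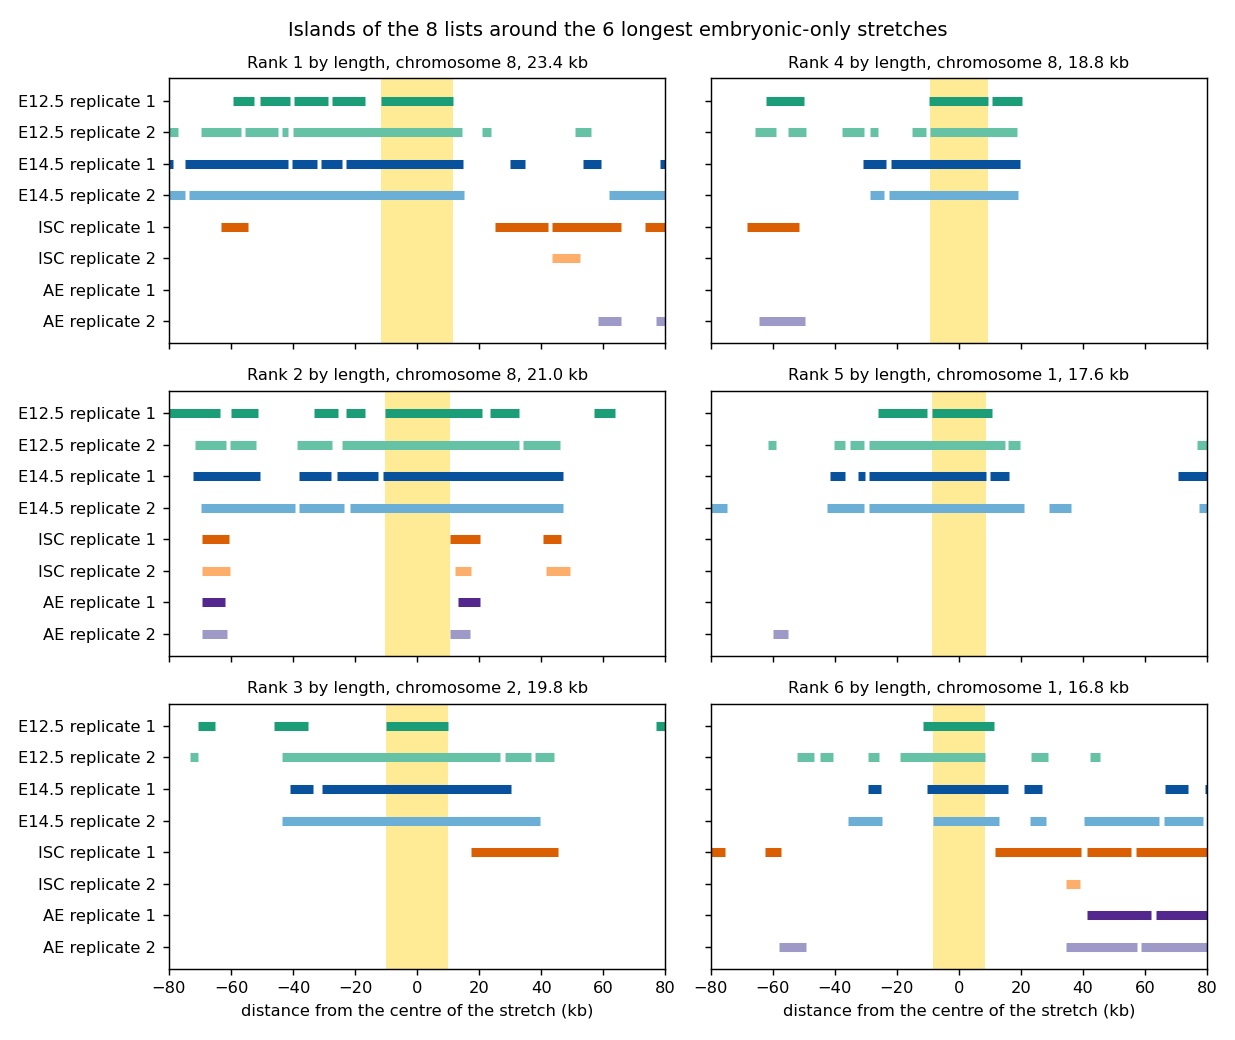
Islands of the 8 lists (bars, 1 line per library) within 80 kb of the centre of each of the 6 longest stretches (yellow), with distance from the centre on the horizontal axis in kb. Adult bars lie outside the yellow stretch by the rule; beside the stretch of 21.0 kb all 4 adult lists have short islands, and around those of 18.8 and 17.6 kb few adult islands are in view.

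Other long stretches also stood apart from adult islands. The stretch of 18.8 kb on chromosome 8 (108262001 to 108280800) lay in islands of 19.0, 28.0, 41.6 and 41.6 kb with folds of 1.56, 2.48, 2.05 and 2.72 (libraries ordered as before), and no adult island came nearer than 40.2 kb. A further embryonic-only stretch of 8.0 kb (108282001 to 108290000) followed after 1.2 kb, where E12.5 replicate 1 was interrupted. On chromosome 1, a stretch of 12 kb (19084001 to 19096000) had folds of 1.98 (1.62 to 2.43), 3.84 (3.38 to 4.37), 3.22 (2.88 to 3.61) and 4.35 (3.84 to 4.93). Its smallest fold was among the 3 highest of all stretches of 5 kb or more. It too had a close neighbour, an embryonic-only stretch of 7.0 kb (19097201 to 19104200) that began 1.2 kb after it. The nearest island of each adult list lay after the 12 kb stretch, 99.8 to 103.6 kb away. All 4 of these lie inside an E14.5 replicate 2 island of 45.8 kb (19189801 to 19235600). That island also holds an embryonic-only stretch of 10.8 kb (19208801 to 19219600), singled out here after its values were seen, which begins where the ISC replicate 1 island ends. Its folds were 1.85, 4.42, 4.44 and 6.25.

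Over the 19.8 kb stretch of chromosome 2 (26391401 to 26411200) the islands reached folds of 1.54, 2.28, 1.61 and 1.76, with an ISC replicate 1 island 7.6 kb away and the other adult lists 102 to 222 kb away. For the 14 kb stretch of chromosome 15 (85497201 to 85511200) they reached 1.89, 2.72, 2.53 and 3.09, and the nearest island of each adult list ended 24.2 to 75 kb before it. The 16.8 kb stretch of chromosome 1 (137805401 to 137822200) had lower folds of 1.24, 1.71, 1.70 and 2.66 and an ISC replicate 1 island 3.2 kb after it. The lowest of the 12 longest was the 12.2 kb stretch on chromosome 19 (7156601 to 7168800), at 1.19 (1.05 to 1.34), 1.75 (1.55 to 1.97), 1.32 (1.15 to 1.5) and 1.37 (1.21 to 1.55). E12.5 replicate 1 gave the lowest of the 4 folds over each of the 12 longest stretches. Its interval lay below that of E12.5 replicate 2 in 12 of 12, below that of E14.5 replicate 1 in 9 and below that of E14.5 replicate 2 in 10. These comparisons are not all separate, since the 15.8 and 17.6 kb stretches of chromosome 1 share their islands in the other embryonic lists. The islands compared also differ in span, and both replicates of an age share a control, so the tally is a description.

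**Figure D4:**
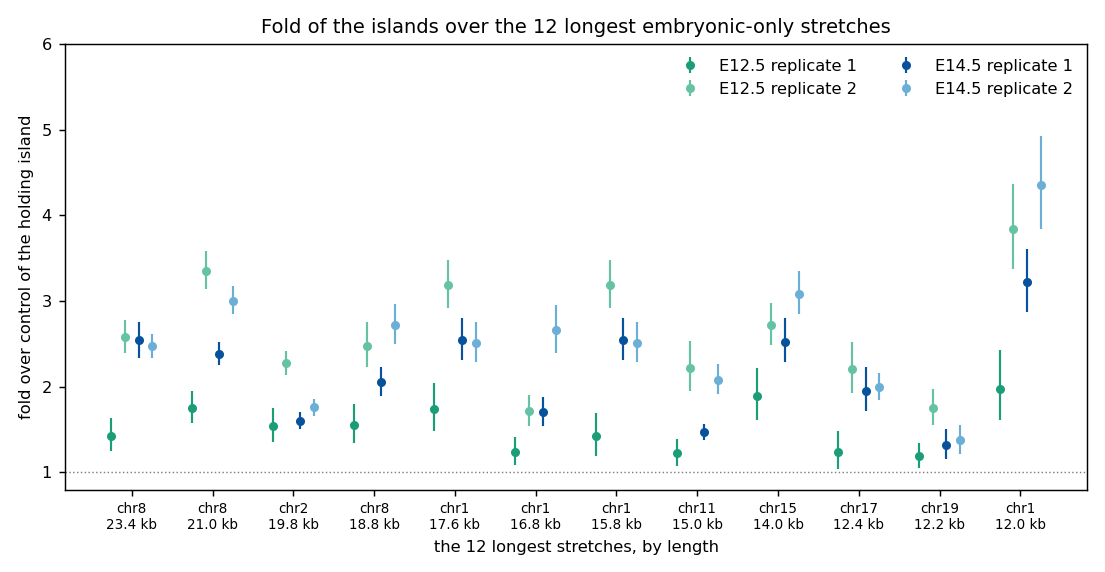
Authors' fold over control of the islands that hold the 12 longest stretches (points, 1 colour per library), with exact 95% binomial intervals that cover counting error only. E12.5 replicate 1 is lowest over each of the 12, and the dotted line marks a fold of 1.

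Stretches of 5 kb or more were ranked by the smallest of their 4 island folds. The highest were on chromosome 16 (7035401 to 7042200, 6.8 kb), on chromosome 1 at 19084001 and on chromosome 8 (112564801 to 112570800, 6.0 kb). Folds at the first of these were 2.02 (1.58 to 2.58), 3.27 (2.73 to 3.93), 4.2 (3.43 to 5.17) and 2.91 (2.54 to 3.34). The chromosome 8 stretch filled 56.6% of its E12.5 replicate 1 island, which gave its smallest fold of 1.97. In the other lists it filled 11.0%, 15.9% and 6.77% of islands that also hold the 23.4 kb stretch. The lowest, beside that on chromosome 19, were a stretch on chromosome 9 (70101601 to 70107200, 5.6 kb) with a smallest fold of 1.17 and another on chromosome 2 (26360401 to 26366200, 5.8 kb) with 1.2. Both of these minima were in E14.5 replicate 1. For the chromosome 2 stretch the interval of that fold, 0.985 to 1.47, included 1.

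Among stretches of 2 kb or more, the 5 farthest from any adult island lay 534 to 715 kb away. The farthest, 7.2 kb on the X chromosome (102956401 to 102963600), had folds of 1.92, 3.44, 2.99 and 3.29. Next came stretches on chromosome 5 (19412601 to 19416600) at 617 kb and chromosome 15 (5191601 to 5194400) at 564 kb. The last of the 5 were both on chromosome 12, at 544 kb (80232201 to 80235400) and 534 kb (14155801 to 14160000). Each of these was called in all 4 embryonic lists as a compact island, of 3.2 to 11.8 kb. After the X stretch, the smallest of the 4 folds was lower, at 1.59, 1.53, 1.35 and 1.31 in the order given. On chromosome 12 the largest island FDRs were 0.00212 and 3.37e-04, in that order. On chromosome X the adult lists called only 0.183 to 0.325 Mb each, against 0.270 and 1.06 Mb at E12.5 and 2.24 and 3.16 Mb at E14.5, so adult calls were sparse there. The sex of the embryos is not given, and its part in this was not tested.

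Stretches of typical size are represented by those nearest the median length, 2.4 kb each. On chromosome 13, 112281401 to 112283800 was held by small islands of 5.4, 2.6, 5.0 and 4.4 kb with folds of 1.51, 2.67, 2.24 and 2.92, and the nearest adult island was 59.8 kb away. On chromosome 15, 95487601 to 95490000 was the edge of islands of 11.6 to 18.4 kb with folds of 1.49, 3.34, 2.29 and 3.43, abutting an ISC replicate 1 island of 20.4 kb, and the other adult islands ended 1.8 to 2.2 kb before it. The third, 48419601 to 48422000 on chromosome 13, lay just inside the authors' limit: its E12.5 replicate 2 island had 68 ChIP reads, a fold of 1.36 (0.966 to 1.90) and an FDR of 0.00978, where the lists end at 0.01. Of all 434 stretches, 103 (23.7%) had at least 1 island with an FDR above 0.001, in 82 cases that of E12.5 replicate 1. In that list 38.0% of all islands were above 0.001, against 19.0% of the islands that hold a stretch. The share was 16.9% for its islands with length called in all 4 embryonic and an adult list but no stretch.

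Over all stretches, the median fold of the holding island was 1.44 in E12.5 replicate 1, 2.28 in E12.5 replicate 2, 1.73 in E14.5 replicate 1 and 2.19 in E14.5 replicate 2. E12.5 replicate 1 gave the lowest of the 4 folds for 326 stretches (75.1%). That list was also lowest for islands with length called in all 4 embryonic and an adult list but no stretch. The median fold of those islands was 1.49 there, against 1.96 to 2.47 in the other embryonic lists. A fold is that of the whole island, of which the stretch was often a small part: the stretch filled a median of 23.5%, 28.3%, 20.6% and 13.3% of the island in the 4 lists. Where it filled at least 80%, which was so for 50, 68, 52 and 18 stretches, the median folds were 1.60, 2.41, 1.63 and 2.34 in the same order. These were above the median over all stretches in 3 lists and below it in E14.5 replicate 1.

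The order of the stretches by fold was partly shared between lists. Across the 434 stretches Spearman's rho between lists was 0.818 for the E14.5 replicates, 0.533 for the E12.5 replicates and 0.526 to 0.622 between the ages. Neighbouring stretches can share an island and replicates share a control, so rho is given as a description.

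Within each list, holding islands ranked above the list as a whole and below the islands of the embryonic core that adults also called. Counting each island once, the median fold of holding islands was 2.25 in E12.5 replicate 2, against 1.66 for all islands of that list and 2.38 for islands that held length called in all 4 embryonic and at least 1 adult list but no embryonic-only stretch. In E14.5 replicate 2 the 3 medians were 2.13, 1.67 and 2.47, in E14.5 replicate 1 they were 1.70, 1.56 and 1.96, and in E12.5 replicate 1 they were 1.44, 1.38 and 1.49. For the stretches standing apart from adult islands they were lower still at E14.5, 1.62 and 2.05. Holding islands were required to have calls in the other lists and the whole list was not, so that contrast is a description.

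**Figure D5:**
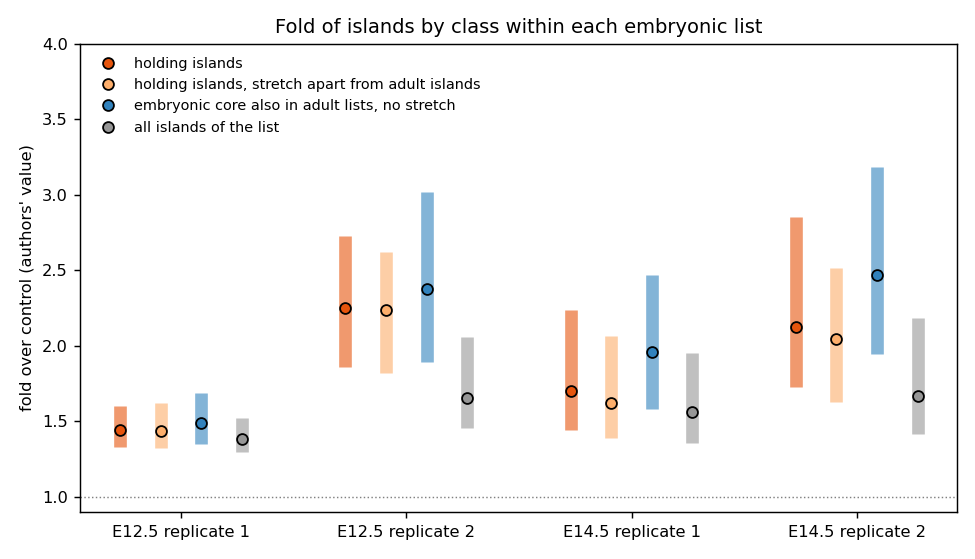
Median (points) and middle 50% (bars) of the authors' fold for 4 classes of islands within each embryonic list. In each of the 4 lists the islands that hold an embryonic-only stretch (dark orange) lie between all islands of the list (grey) and the embryonic core that adult lists also called (blue).

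A fold of 1.5 or more in all 4 islands was met by 146 stretches (33.6%), and by 39.4% of the 2623 segments covered in all 4 embryonic lists. An FDR of 1e-10 or less in all 4 was met by 57 (13.1%), against 21.0% of those segments. Stretches standing apart passed the fold limit in 42 of 160 cases (26.2%) and the rest in 104 of 274 (38.0%). The shares over all stretches, 33.6% and 13.1%, were below those of the segments, while the 38.0% was close to the 39.4%. The segments include those that hold the stretches, and stretches that share islands are each counted. The fold and FDR come from the same calls as the rule, so these shares are a description only.

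Read depth set how firmly single folds can be taken. The median holding island had 167.5 ChIP reads in E12.5 replicate 1, 236.5 in E12.5 replicate 2, 395 in E14.5 replicate 1 and 387 in E14.5 replicate 2. Intervals given with folds are exact binomial intervals on ChIP and control reads and cover counting error only. Control reads entered the calls through the fold, and both libraries of an age share a control, so they are given as a description. Control reads per kb of holding islands had medians of 21.1 against 20.9 for the whole list in E12.5 replicate 1, 21.0 against 20.8 in E12.5 replicate 2, 23.6 against 21.3 in E14.5 replicate 1 and 23.5 against 21.5 in E14.5 replicate 2. Only 7 of the 434 stretches had an island above 50 control reads per kb, and none of the 7 was longer than 1.8 kb.

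How far the holding islands reached was set side by side for the 2 embryonic ages. These lengths come from the same island ends that the rule used, and longer islands are more likely to cover a chosen window, so no test is given. Median lengths of the holding islands were 9.8 and 7.6 kb in the E12.5 libraries (8.70 ± 1.56 kb, SD, n = 2) and 10.2 and 13.6 kb in the E14.5 libraries (11.9 ± 2.40 kb, SD, n = 2). Both E14.5 libraries were above both E12.5 libraries, by 0.45 on the log2 scale on average or 1.36-fold. This was not particular to holding islands. Islands with length called in all 4 embryonic and an adult list but no stretch had medians of 9.6 and 8.6 kb at E12.5 and 12.2 and 15.8 kb at E14.5. With 2 libraries per age, the values 9.8 and 10.2 kb of the replicates numbered 1 were closer to each other than either was to the other library of its age. Around 324 stretches (74.7%) the segment called in both E14.5 lists was longer than that called in both E12.5 lists. The same held for 84.1% of all segments covered in the 4 embryonic lists.

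By chromosome, the largest share of the length was on chromosome 8, with 39 stretches and 0.203 Mb (14.4%), followed by chromosome 11 with 49 stretches and 0.141 Mb and chromosome 1 with 27 and 0.135 Mb. Relative to the length covered in all 4 embryonic lists, chromosome 8 again led with 20.7%, then chromosome 17 with 14%, chromosome 16 with 11.7% and chromosome 1 with 11.4%. The autosomes with the smallest shares were chromosome 6 at 3.26% and chromosome 7 at 4.29%. The chromosome 8 value includes the 2 neighbourhoods above and the 18.8 kb stretch, which together hold 124.6 kb. Chromosome X had 5 stretches with 10.4 kb, 7.2 kb of it in the stretch at 102956401, and chromosome Y had none. On chromosome Y, ISC replicate 1 called 0 Mb despite its great extent. Every other list, embryonic or adult, called 0.102 to 0.129 Mb there. What lies behind this difference was not tested.

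The rule was applied again under 3 filters, each set on adult and embryonic lists alike. Cutting the adult lists makes adult absence easier to meet, so these settings are not simply stricter. With the FDR limit of 1e-10 alone, 57 stretches (13.1%) were found again, where 21.0% of the 2623 embryonic segments met that limit. Of the 434, 55 (12.7%) were found again, at least in part, with the fold limit of 1.5, with that FDR limit, and with all lists cut to the same covered length. The 55 had a median length of 1.2 kb, against 2.4 kb over all 434. Of these 55, 8 stood apart from adult islands, against 160 of the 434. Of the 12 longest, 6 were among the 55: those of 21.0 and 18.8 kb on chromosome 8, 19.8 kb on chromosome 2, 17.6 and 12 kb on chromosome 1 and 14 kb on chromosome 15. With lists of the same covered length, 334 of the 434 (77.0%) and 11 of the 12 longest were found again. The 23.4 kb stretch was kept with the FDR limit and at the same covered length and lost with the fold limit, by its fold of 1.43 in E12.5 replicate 1.

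Genes at these places are not given, because the gene annotation used here is of GRCm38 and the lists are of mm9, and neither coordinates nor sequences were carried over between builds.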

How the data were processed

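H3K27me3 ChIP-seq islands of 8 libraries were analysed. Per the submitters' processing notes, the authors used bcl2fastq 1.8.4, Bowtie 1.1.2, SAMtools 1.2 and SICER 1.1 on build mm9. The lists have no header. From their values, the deposited columns were read as ChIP and control read counts per island (not normalized), a p-value, the fold (the ratio the authors deposited, which equals ChIP over control reads times a constant per list) and an FDR, a q-value, of at most 0.01. Islands were called per replicate. Both replicates of a group had the same control counts in each of the islands they share exactly (30, 52, 17 and 41), and their ChIP counts differed in all but 1.

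Windows of 200 bp were marked as covered or not in each list (Python 3.11.15, with numpy 2.4.6). Coordinates are 1-based. Fold intervals (95%, Clopper-Pearson) used scipy 1.17.1. PCR copies were not marked, so they cover counting error only. The scripts were tested on simulated lists. ChIP reads inside islands numbered 1171968 to 6627853 per library; total depth is not listed. The members and classes were chosen with earlier results of these data known. Named regions are the 12 longest, the 5 leading neighbourhoods (gaps of at most 50 kb), the 5 of at least 2 kb farthest from adult islands, the 3 highest and 3 lowest by smallest fold among those of at least 5 kb, and the 3 nearest the median length. A permutation test of holding-island length between the ages was planned but is not reported, since the rule used the same island ends. The planned gene lists were not used, as no mm9 annotation was at hand.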

Additional observations from a re-analysis of the deposited data

How the results depend on the processing

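The rule depends on what is called in 8 lists, and its counts moved with the lists. With a fold of 1.5 or more it gave 191 stretches, 0.702 Mb, 87 abutting an adult island, 89 standing apart and 29 neighbourhoods of 2 or more; with an FDR of 1e-10 or less 63, 0.303 Mb, 33, 25 and 12. At equal covered length the length was 2.16 Mb and 284 stood apart. With stretches of 1 kb or more, 111 abutted and 42 neighbourhoods remained. Leaving out each library in turn gave 465 to 1561 stretches, 1.49 to 4.8 Mb, 212 to 674 abutting, 165 to 726 standing apart and 73 to 268 neighbourhoods, the highest of each without E12.5 replicate 1. Without ISC replicate 1 these were 817, 2.58 Mb, 371, 307 and 132, and without E14.5 replicate 1 the neighbourhoods numbered 104. Leaving out a library can only lengthen the members, since 1 condition fewer is asked. Joining gaps of up to 600 bp changed nothing, as no list has a gap under 1200 bp; gaps of up to 2000 bp, chosen after seeing the data, gave 392 stretches. The E14.5 excess in holding-island length kept its sign in each setting tried, from 0.21 to 0.64 on the log2 scale without 1 embryonic library. Both E14.5 medians lay above both E12.5 medians, so with the same members leaving out 1 library could not turn the sign. The kept sign is therefore a description. With the replicate block the excess was 0.45 by construction, since the mean of paired differences equals the difference of means. The block thus adds nothing here. No test is given, since the rule used the same island ends; the labels do not say that equal numbers pair samples.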
